A study of Mus musculus with 21 samples.

Results

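The matrix proteases and their inhibitors described here are the genes of the deposited mouse expression table whose symbol begins with Mmp, Adamts, Adamtsl or Timp followed by a digit, with Mmp8, Mmp9 and Mmp13 left out. Of 49 matching symbols, 3 were left out by that rule and 46 remained, among 26852 genes in all. A mean deposited log2 value of at least the same minimum as for every other gene, taken over all 21 libraries, was needed for testing: 31 of the 46 genes and 12980 of the 26852 genes passed it. The 46 genes hold 18 matrix metalloproteinases (MMPs), of which 9 passed, 19 ADAMTS proteases, of which 14 passed, 5 ADAMTS-like genes, of which 4 passed, and 4 tissue inhibitors of metalloproteinases (TIMPs), all of which passed.

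The study asked how bone marrow mesenchymal cells change as human acute myeloid leukemia grows around them, early and late in the disease. RNA was sequenced from sorted Nes-low mesenchymal cells, the stromal cells with low Nestin reporter signal, of Nestin+ NSG mice, an immunodeficient strain carrying a Nestin-driven GFP reporter. Leukemic mice had received HL60 or ML1, human acute myeloid leukemia cell lines that release a lipid-permeable mCherry label taken up by nearby cells, at 8 to 12 weeks of age and without conditioning. Blood cells of both species were depleted before sorting.

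There were 3 libraries of unengrafted mice (ctrl, replicates 373, 374 and 375). Early in the disease, 6 libraries held cells that had taken up the label (early ch+; HL60 replicates 523, 524 and 525, ML1 replicates 538, 539 and 541) and 6 held cells that had not (early ch-; HL60 replicates 527, 528 and 529, ML1 replicates 543, 544 and 546). Late in the disease, 6 libraries were made without a label gate (late; HL60 replicates 397, 398 and 399, ML1 replicates 581, 582 and 583). NSG mice lack T, B and natural killer cells, each leukemia came from an established line, and the late cells were not split by label, which limits each group as a model. The study describes early ch- cells as sorted from the marrow that also gave early ch+ cells, but no label says which libraries share a mouse, so they were compared unpaired. Nor do the labels say that libraries of a group come from separate mice, so the p-values measure the spread between these samples, which may be technical. The study gives a typical sequencing yield, but the depth of each library is unknown, because the deposited values are on a regularized log2 scale.

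The treatment label of the 3 late ML1 libraries says unengrafted, while their titles and time point label place them late in the leukemia. They were kept as late, and the late results of called members and of the TIMPs are given with and without them. The labels also describe a sort of CD31+ endothelial cells in the extraction text, while the source name and cell type say Nes-low mesenchymal cells. Endothelial markers had a summed level of 8.54 in ctrl on the log2 scale, with Cdh5, the most abundant per length of the 10, at a mean of 6.56. The 12 markers of Nes-low and Cxcl12-abundant reticular cells summed to 16.35, led by Cxcl12 at 15.19.

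Matrix metalloproteinases and ADAMTS proteases are zinc enzymes that cut collagens, proteoglycans and other proteins of the extracellular matrix, and most are made as inactive precursors. MMPs are either secreted or anchored in the cell membrane, ADAMTS proteases are secreted, and ADAMTS-like proteins keep the accessory domains of the ADAMTS family without a protease domain. TIMPs bind the active site of MMPs and block it, and TIMP3 also blocks some ADAMTS proteases. In bone marrow, stromal cells make many of these genes, which take part in bone and cartilage turnover and in the release of cytokines held by the matrix.

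The levels of cell type markers differed between the groups. In late against ctrl, where 10.2% of all tested genes were higher and 11.4% lower, 9 of 12 Nes-low and reticular markers were higher and 1 lower, and their summed level went from 16.35 (16.20 to 16.62 over the ctrl libraries) to 17.04 (16.82 to 17.25) in early ch+ and 17.38 (17.23 to 17.55) in late. All 12 tested chondrocyte markers were lower in late, and their summed level went from 17.33 (16.94 to 17.76) in ctrl to 16.77 (16.41 to 17.09) in early ch-, 15.80 (15.44 to 16.17) in early ch+ and 13.67 (12.39 to 14.94) in late. Col2a1 had means of 16.29, 15.39, 13.57 and 12.35 in this order. The sum follows the most abundant collagens, while Acan went from 11.80 in ctrl and 11.06 in early ch- to 7.85 in early ch+ and 8.16 in late. Of 11 osteoblast markers, 9 were lower and 1 higher in late. Their sum was 21.05 (20.86 to 21.29) in ctrl, 20.87 in early ch-, 20.53 in early ch+ and 18.33 (16.95 to 19.59) in late, led by Col1a1 at 20.32 in ctrl and 17.40 in late. The late libraries of the cell lines stood apart on both lists, at 14.72 for HL60 and 12.62 for ML1 on the chondrocyte sum and at 19.45 and 17.22 on the osteoblast sum. Smooth muscle markers were lower for 5 of 10 in late and for 7 of 10 in early ch+ (all genes 2.75% lower), against ctrl. Their sums were 14.21 (13.69 to 14.81) in ctrl, 13.61 in early ch-, 12.31 (12.00 to 12.71) in early ch+ and 13.07 in late. Acta2, the most abundant of the list per length, had means of 12.26, 11.53, 9.59 and 10.77. After rescaling the libraries to the same total, with 64.0% of all genes called, smooth muscle markers in late against ctrl were 2 higher and 2 lower (median 0.03), Nes-low and reticular markers 12 higher, chondrocyte markers 12 lower, and osteoblast markers 1 higher and 8 lower. Without the late ML1 libraries, with 12.4% of all genes called, the counts were 4 smooth muscle markers lower, 9 Nes-low and reticular markers higher, 12 chondrocyte markers lower, and 1 osteoblast marker higher and 8 lower.

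Chondrocyte and smooth muscle markers were lower in early ch+ as well. Of the 12 tested chondrocyte markers, 10 were lower in early ch+ than in ctrl (median −3.60; all genes 2.75% lower) and 10 lower than in early ch- (median −2.88; all genes 2.67% lower). Late against early ch+ had 3 lower and none higher (median 0.20; all genes 10.9% lower). After rescaling this became 6 higher and 2 lower (median 0.81; all genes 69.6% called). Without the late ML1 libraries it became 3 higher and 2 lower (median 1.01; all genes 11.4% called). Smooth muscle markers were lower in early ch+ than in early ch- for 7 of 10 (median −1.40), and 6 of 10 were higher in late than in early ch+ (median 0.88; all genes 8.78% higher). The part of these markers in the differences of Timp2, Timp4, Adamts5 and Adamtsl5 between early ch+ and early ch- was not tested.

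Blood markers stood high in the early libraries. Neutrophil and blood markers summed to 7.81 (7.03 to 9.08) in ctrl, 10.94 (10.53 to 11.71) in early ch-, 10.93 (10.16 to 11.56) in early ch+ and 7.80 (7.32 to 8.50) in late. S100a9 had means of 4.14, 8.82, 8.93 and 3.66 in this order, and Cybb of 4.8, 6.43, 6.4 and 6.62. Red cell markers summed to 8.98, 12.89, 13.00 and 6.85 in the same order, led by Hbb-bs. Macrophage and osteoclast markers summed to 7.22, 6.88, 7.89 and 6.40, with 1 of 3 tested higher in early ch+ than in early ch- (all genes 3.57% higher). Acp5, the most abundant of that list per length, had means of 5.6, 5.56, 6.6 and 4.71. The other tested genes of the list were Atp6v0d2, with means of 4.63, 3.12, 5.68 and 3.33, and Mrc1, with 5.82, 5.45, 5.82 and 4.91. Skeletal muscle markers summed to 7.70, 8.20, 8.70 and 6.53, and 4 of 5 tested were higher in early ch+ than in ctrl (all genes 3.41% higher), while Actn3, the most abundant of the list per length, had means of 6.95, 6.53, 6.26 and 5.61. The endothelial sum was 8.44 in early ch-, 8.62 in early ch+ and 8.12 in late. The part of these cell types in the results on proteases and inhibitors was not tested. In bulk libraries, fewer cells of a type and less RNA per cell cannot be told apart.

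Across the tested members, the late stage held most calls, where a call is a limma test with a Benjamini-Hochberg adjusted p under 0.1 over the 12980 tested genes. Between late and ctrl, 16 of 31 were called (51.6%), against 21.5% of all tested genes, with 9 higher (all genes 10.2%) and 7 lower (all genes 11.4%). The 16 fell to 10 without ctrl replicate 375 and to 8 without the late ML1 libraries (all genes 12.4%). Late against early ch+ gave 19 of 31 (61.3%; all genes 19.7%), with 9 higher (all genes 8.78%) and 10 lower (all genes 10.9%). The 19 fell to 12 without the late ML1 libraries (all genes 11.4%). Early ch+ against ctrl gave 4 of 31 (12.9%; all genes 6.16%), with 2 higher (all genes 3.41%) and 2 lower (all genes 2.75%), and early ch+ against early ch- gave 4 (all genes 6.25%), with 3 higher (all genes 3.57%) and 1 lower (all genes 2.67%). Early ch- against ctrl gave none by limma (all genes 1.92%), with 1 member at an unadjusted p under 0.05 and fold changes from −0.69 to 0.73 on the log2 scale. Comparisons that share ctrl or early ch+ libraries are not independent of each other. The median size of the log2 fold change was 0.70 for members and 0.34 for all tested genes in late against ctrl, 0.69 and 0.27 in late against early ch+, 0.24 and 0.28 in early ch+ against ctrl, and 0.32 and 0.22 in early ch+ against early ch-. In all, 23 members were called in at least 1 comparison, and the 8 called in none were Adamts2, Adamts7, Adamts10, Adamts14, Adamts15, Mmp15, Mmp23 and Mmp28.

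**Figure D1:**
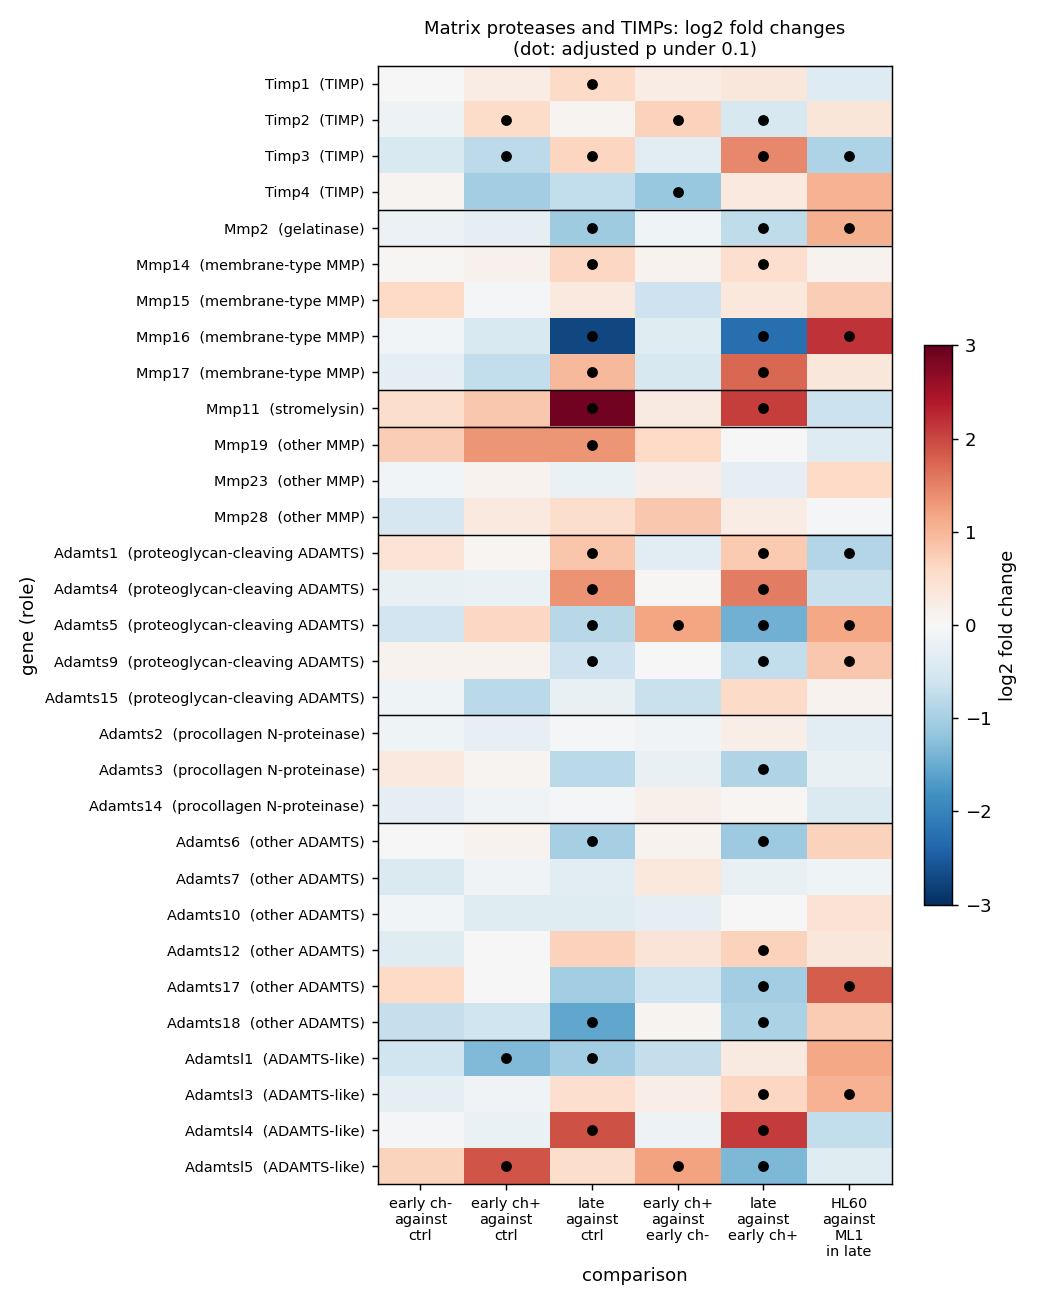
Heat map of the log2 fold change of the 31 tested members (y axis, grouped by role) in 6 comparisons (x axis), with red for higher and blue for lower values and a dot where the adjusted p was under 0.1. Most dots lie in the late columns, none lies in the column of early ch- against ctrl, and the late reductions of Adamts9 against ctrl and of Timp2 against early ch+ turn to 0.06 and 0.15 when libraries are rescaled to the same total.

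The split of late calls into higher and lower moved with the scaling of the libraries, which shifts all genes of a library alike. Of the late calls against ctrl and early ch+, 2 changed sign, Adamts9 against ctrl and Timp2 against early ch+. The summed signal of a library, as normalized by the submitters and in units of 1000000, was 11.86 to 14.23 in ctrl, 12.26 to 14.74 in early ch-, 11.21 to 12.65 in early ch+ and 7.26 to 9.02 in late. Rescaling every library to the mean total moved the median of all tested genes in late against ctrl from 0.02 to 0.71, in late against early ch+ from 0.02 to 0.63, in HL60 against ML1 in late from 0 to −0.24 and in early ch+ against early ch- from −0.02 to 0.13. On that scale 18 members were higher and 3 lower in late against ctrl, beside 9 and 7 as deposited, while 64.0% of all genes were called. Late against early ch+ then gave 18 higher and 3 lower, beside 9 and 10, with 69.6% of all genes called. Early ch+ against ctrl gave 5 higher and 1 lower, beside 2 and 2, with 6.25% of all genes called. After quantile normalization, late against ctrl gave 9 higher and 5 lower, with 20.9% of all genes called. All fold changes below are on the deposited scale, and a call ended or reversed by rescaling is named with the gene. Calls that stood but moved by over 1.5 times were, in late against ctrl, Mmp14 (1.32), Mmp17 (1.66), Mmp19 (2.01), Timp1 (1.27), Timp3 (1.34), Adamts1 (1.52), Adamts4 (2.04), Adamts18 (−0.86) and Mmp2 (−0.37). In late against early ch+ they were Mmp14 (1.11), Adamts1 (1.40), Adamts12 (1.31), Adamtsl3 (1.23), Adamts5 (−0.82) and Adamtsl5 (−0.73).

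The 4 TIMPs differed in stage. Timp1 encodes a secreted inhibitor that many tissues induce on injury. Its values were 9.28, 8.64 and 9.01 in ctrl replicates 373, 374 and 375. In early ch- its lowest, median and highest values were 8.69, 9.0 and 9.25, in early ch+ 8.74, 9.20 and 9.56, and in late 9.06, 9.59 and 9.89. The late libraries overlapped the ctrl range at its top. Late was higher than ctrl by 0.58 ± 0.19 (log2 fold change ± SE, limma adjusted p = 0.0385, n = 6 and 3), a call lost without ctrl replicate 374 (0.41, adjusted p = 0.252) without the late ML1 libraries (0.39, adjusted p = 0.354) and with HL60 alone (0.39, adjusted p = 0.357). Timp1 in early ch+ against ctrl (0.22, adjusted p = 0.606), in early ch+ against early ch- (0.22, adjusted p = 0.534) and in late against early ch+ (0.35, adjusted p = 0.147) did not pass, and the last was 0.16 (adjusted p = 0.757) without the late ML1 libraries. It passed at 0.97 (adjusted p = 5.5e-05) after rescaling, at 0.57 (adjusted p = 0.0759) with the ML1 libraries alone, at 0.45 (adjusted p = 0.0525) without late replicate 399 and at 0.42 (adjusted p = 0.0862) without early ch+ replicate 524.

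Timp2, which blocks MMPs and also takes part in activating pro-MMP2 at the cell surface together with MMP14, was highest in the labelled early cells. Its values were 11.79, 11.84 and 12.03 in ctrl replicates 373, 374 and 375. Early ch- spanned 11.36 to 11.92 (median 11.76), early ch+ 11.98 to 13.05 (median 12.37) and late 11.65 to 12.28 (median 11.89). Every early ch+ library lay above every early ch- library. The difference between them was 0.70 ± 0.14 (adjusted p = 0.00135, n = 6 and 6), and it was 0.87 within HL60 and 0.53 within ML1. Against ctrl, early ch+ was higher by 0.55 ± 0.17 (adjusted p = 0.0665), a call lost without ctrl replicate 373 (0.50, adjusted p = 0.207) or 374 (0.53, adjusted p = 0.185) and without early ch+ replicate 523 (0.43, adjusted p = 0.128) or 524 (0.53, adjusted p = 0.104). It was also lost without the filter on low values (adjusted p = 0.17) and without the mean-variance trend (adjusted p = 0.168). Late was lower than early ch+ by −0.47 ± 0.14 (adjusted p = 0.0176), which became 0.15 (adjusted p = 0.311) after rescaling to the mean total −0.29 (adjusted p = 0.328) without the late ML1 libraries and −0.37 (adjusted p = 0.327) with HL60 alone. Late against ctrl was 0.08 (adjusted p = 0.83), with 0.77 (adjusted p = 0.000259) after rescaling and 0.26 (adjusted p = 0.474) without the late ML1 libraries.

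Timp3, the inhibitor that stays bound to the matrix and also blocks ADAMTS4, ADAMTS5 and ADAM17, was lowest early and highest late. Ctrl replicates 373, 374 and 375 had 11.63, 11.95 and 11.10. The lowest, median and highest values were 10.59, 11.09 and 11.51 in early ch-, 10.42, 10.72 and 11.32 in early ch+, and 11.43, 12.37 and 12.84 in late. No late library fell into the early ch+ range. Late exceeded early ch+ by 1.43 ± 0.21 (adjusted p = 5.27e-06; 0.97, adjusted p = 0.00102 without the late ML1 libraries) and exceeded ctrl by 0.65 ± 0.25 (adjusted p = 0.0805). The latter was lost without ctrl replicate 373 (0.68, adjusted p = 0.136) or 375 (0.42, adjusted p = 0.405), without late replicate 581 (0.55, adjusted p = 0.164), 582 (0.59, adjusted p = 0.142), 583 (0.52, adjusted p = 0.176) or 398 (0.64, adjusted p = 0.103), without all 3 late ML1 libraries (0.18, adjusted p = 0.753) and with HL60 alone (0.18, adjusted p = 0.714). The filter left out (adjusted p = 0.225), quantile normalization (0.57, adjusted p = 0.12), no trend (adjusted p = 0.157) and a fit of only the compared groups (adjusted p = 0.152) ended it too. Early ch+ was below ctrl by −0.78 ± 0.25 (adjusted p = 0.078), a call lost without ctrl replicate 373 (−0.75, adjusted p = 0.205) or 374 (−0.59, adjusted p = 0.331), without early ch+ replicate 525 (−0.78, adjusted p = 0.107), 538 (−0.74, adjusted p = 0.134), 539 (−0.71, adjusted p = 0.145) or 541 (−0.76, adjusted p = 0.113), and after rescaling (−0.71, adjusted p = 0.183). It was lost as well with HL60 alone (−0.56, adjusted p = 0.183), without the filter (adjusted p = 0.256) and without the trend (adjusted p = 0.173). Early ch+ against early ch- was −0.33 (adjusted p = 0.47), and early ch- against ctrl passed with ML1 alone (−0.64, adjusted p = 0.094).

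Timp4, the TIMP with the most restricted expression in adult tissues, had the lowest level per kilobase of exon of the 4 in ctrl (4.03 on the log2 scale). Ctrl replicates 373, 374 and 375 had 7.10, 5.95 and 6.73. The lowest, median and highest values were 6.29, 6.55 and 7.25 in early ch-, 5.07, 5.40 and 6.62 in early ch+, and 5.20, 5.39 and 7.64 in late, where HL60 replicate 398 held the 7.64. Early ch+ was below early ch- by −1.13 ± 0.35 (adjusted p = 0.0644). That call was lost without early ch+ replicate 525 (−1.09, adjusted p = 0.11), 538 (−1.03, adjusted p = 0.137), 539 (−1.05, adjusted p = 0.132) or 541 (−1.11, adjusted p = 0.102), and without early ch- replicate 529 (−1.02, adjusted p = 0.145) or 543 (−1.04, adjusted p = 0.137). It was −0.84 (adjusted p = 0.53) within HL60 and −1.42 (adjusted p = 0.0631) within ML1, and was lost without the filter (adjusted p = 0.172). Late against ctrl was −0.75 (adjusted p = 0.269), with −1.12 (adjusted p = 0.0343) without late replicate 398, −0.24 (adjusted p = 0.862) without the late ML1 libraries and −1.27 (adjusted p = 0.0311) with ML1 alone. Early ch+ against ctrl was −1.05 (adjusted p = 0.202), and passed at 0.0976 with the same fold change without late replicate 398 and with ML1 alone (−1.37, adjusted p = 0.0583). Late against early ch+ was 0.30 (adjusted p = 0.675), with 0.91 (adjusted p = 0.0218) after rescaling and 0.81 (adjusted p = 0.295) without the late ML1 libraries.

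**Figure D2:**
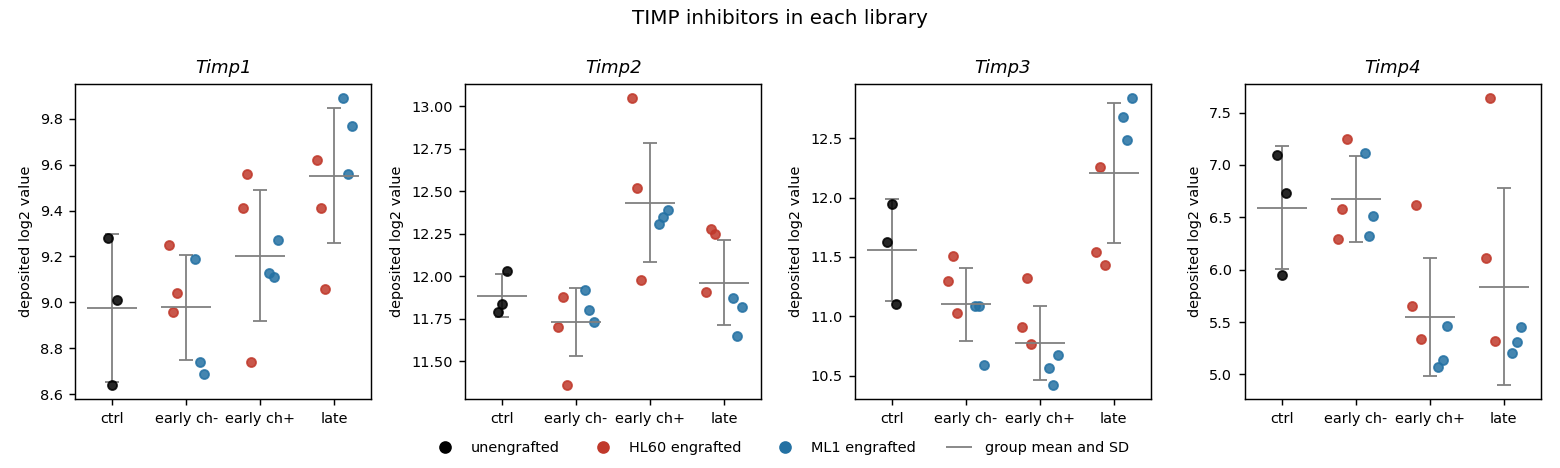
Deposited log2 value (y axis) of the 4 TIMP genes in each library by group (x axis), coloured by cell line, with the group mean and SD as lines. Timp2 in all 6 early ch+ libraries (11.98 to 13.05) lies above all 6 early ch- libraries (11.36 to 11.92), and Timp3 in late (11.43 to 12.84) lies above early ch+ (10.42 to 11.32).

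The synapsin genes Syn1, Syn2 and Syn3 overlap TIMP genes on the opposite strand. The group means of Syn1, which overlaps Timp1, went from 6.34 in ctrl to 4.97 in late. Those of Syn3, which overlaps Timp3, were 6.09 in ctrl, 5.02 in early ch+ and 6.01 in late, and those of Syn2, which overlaps Timp4, were 1.33 and 1.2. Cep295nl overlaps Timp2 on the same strand and had means of 4.15 in ctrl, 5.41 in early ch-, 5.31 in early ch+ and 4.78 in late. The authors describe counting by strand, which would keep the opposite-strand pairs apart only if the amplified libraries retain the strand. Whether they do was not tested here. Where Cep295nl and Timp2 overlap on the same strand, their reads cannot be told apart.

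Among the secreted MMPs, Mmp2 and Mmp11 moved in opposite directions late in the disease. Mmp2 encodes gelatinase A, which cuts denatured collagens and collagen IV, and it had the highest level per kilobase of exon of all 31 members in ctrl (10.48 on the log2 scale, 9.42 in late), followed by Timp2 (9.92) and Timp1 (9.15). Mmp2 (ENSMUSG00000031740, chr8:92827291-92853420 of GRCm38, plus strand) had 12.18, 12.07 and 12.46 in ctrl replicates 373, 374 and 375. Its lowest, median and highest values were 11.96, 12.04 and 12.23 in early ch-, 11.69, 11.99 and 12.03 in early ch+, and 10.53, 11.16 and 11.87 in late. The late libraries all lay below ctrl, with HL60 at 11.57, 11.87 and 11.66 and ML1 at 10.75, 10.66 and 10.53. Late was lower than ctrl by −1.06 ± 0.21 (adjusted p = 0.000382) and lower than early ch+ by −0.77 ± 0.17 (adjusted p = 0.0014). Without the late ML1 libraries these were −0.53 (adjusted p = 0.0059) and −0.24 (adjusted p = 0.246), and after rescaling they were −0.37, still called, and −0.15 (adjusted p = 0.372). With HL60 alone the second was −0.30 (adjusted p = 0.22).

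Mmp11, a stromelysin with a furin cleavage site in its propeptide that is known from the stroma around carcinomas, showed the largest rise from ctrl to late of the tested members. Mmp11 (ENSMUSG00000000901, chr10:75923222-75936496, minus strand) had 7.23, 7.06 and 8.03 in ctrl replicates 373, 374 and 375. Early ch- spanned 7.53 to 8.67 (median 7.75), early ch+ 7.68 to 8.86 (median 8.24) and late 9.77 to 10.94 (median 10.27). All 6 late libraries lay above every other library, with HL60 at 10.12, 10.14 and 9.77 and ML1 at 10.63, 10.94 and 10.40. Late exceeded ctrl by 2.90 ± 0.30 (adjusted p = 4.59e-08) and early ch+ by 2.08 ± 0.24 (adjusted p = 1.58e-07). Without the late ML1 libraries the differences were 2.57 (adjusted p = 1.32e-06) and 1.76 (adjusted p = 4.71e-05), and no library decided the call. Chchd10, which overlaps Mmp11 on the opposite strand, had means of 4.46 in ctrl and 5.10 in late. Per kilobase of exon, the level of Mmp11 went from 5.96 in ctrl to 8.86 in late.

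Mmp19, a secreted MMP of the epidermis and other tissues, was higher in late than in ctrl. Mmp19 (ENSMUSG00000025355, chr10:128790910-128800824, plus strand) had 6.59, 6.61 and 5.92 in ctrl replicates 373, 374 and 375. The lowest, median and highest values were 4.77, 7.46 and 8.01 in early ch-, 6.88, 7.99 and 8.38 in early ch+, and 6.87, 7.74 and 8.30 in late. The early ch+ and late libraries all lay above ctrl, and the 4.77 belonged to ML1 replicate 543 alone. Late exceeded ctrl by 1.32 ± 0.46 (adjusted p = 0.048), a call lost without ctrl replicate 375 (1.09, adjusted p = 0.208), without the late ML1 libraries (1.12, adjusted p = 0.227) and without the filter on low values (adjusted p = 0.16). Early ch+ against ctrl (1.33, adjusted p = 0.112) and early ch- against ctrl (0.73, adjusted p = 0.569) did not pass. Tmem198b on the opposite strand had means of 5.36 in ctrl and 5.75 in late.

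The membrane-type MMPs diverged. Mmp16, which encodes the membrane-anchored MT3-MMP, had the largest reduction in late among members, against ctrl and against early ch+. Mmp16 (ENSMUSG00000028226, chr4:17852893-18119145, plus strand) had 10.74, 10.61 and 11.11 in ctrl replicates 373, 374 and 375. Its lowest, median and highest values were 10.42, 10.80 and 10.89 in early ch-, 10.01, 10.37 and 10.61 in early ch+, and 6.73, 8.21 and 9.27 in late. The late libraries lay below all others, in separate ranges by cell line, with HL60 at 9.27, 9.23 and 9.05 and ML1 at 6.92, 6.73 and 7.37. Late was lower than ctrl by −2.72 ± 0.39 (adjusted p = 6e-06) and lower than early ch+ by −2.26 ± 0.32 (adjusted p = 3.27e-06). Without the late ML1 libraries the differences were −1.63 (adjusted p = 3.59e-08) and −1.17 (adjusted p = 9.16e-07).

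Mmp14, which encodes MT1-MMP, a collagenase on the cell surface and an activator of pro-MMP2, was at 11.25 ± 0.22 (mean ± SD, n = 3) in ctrl, 11.28 in early ch-, 11.38 in early ch+ and 11.88 ± 0.21 (n = 6) in late. It rose in late by 0.63 ± 0.13 against ctrl (adjusted p = 0.00106) and by 0.50 ± 0.11 against early ch+ (adjusted p = 0.00137). The change from ctrl was 0.68 within HL60 and 0.58 within ML1, and without the late ML1 libraries the changes were 0.68 (adjusted p = 0.000996) and 0.55 (adjusted p = 0.00214). With ML1 alone the rise from early ch+ was 0.41 (adjusted p = 0.108). Mmp17, which encodes the glycolipid-anchored MT4-MMP, had 7.75, 5.89 and 7.65 in ctrl replicates 373, 374 and 375 and ranged from 5.63 to 6.78 in early ch+ and from 7.56 to 8.39 in late. Late exceeded early ch+ by 1.72 ± 0.29 (adjusted p = 4.81e-05), and by 1.89 (adjusted p = 0.000463) without the late ML1 libraries. Against ctrl its 0.97 ± 0.35 (adjusted p = 0.0602) was lost without ctrl replicate 374 (0.36, adjusted p = 0.571) and without late replicate 399 (0.90, adjusted p = 0.103). It was 1.14 (adjusted p = 0.0916) without the late ML1 libraries, and was lost with HL60 alone (1.14, adjusted p = 0.114), with ML1 alone (0.79, adjusted p = 0.206) and without the filter (adjusted p = 0.146). Mmp15, the last tested membrane-type member, had no call.

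**Figure D3:**
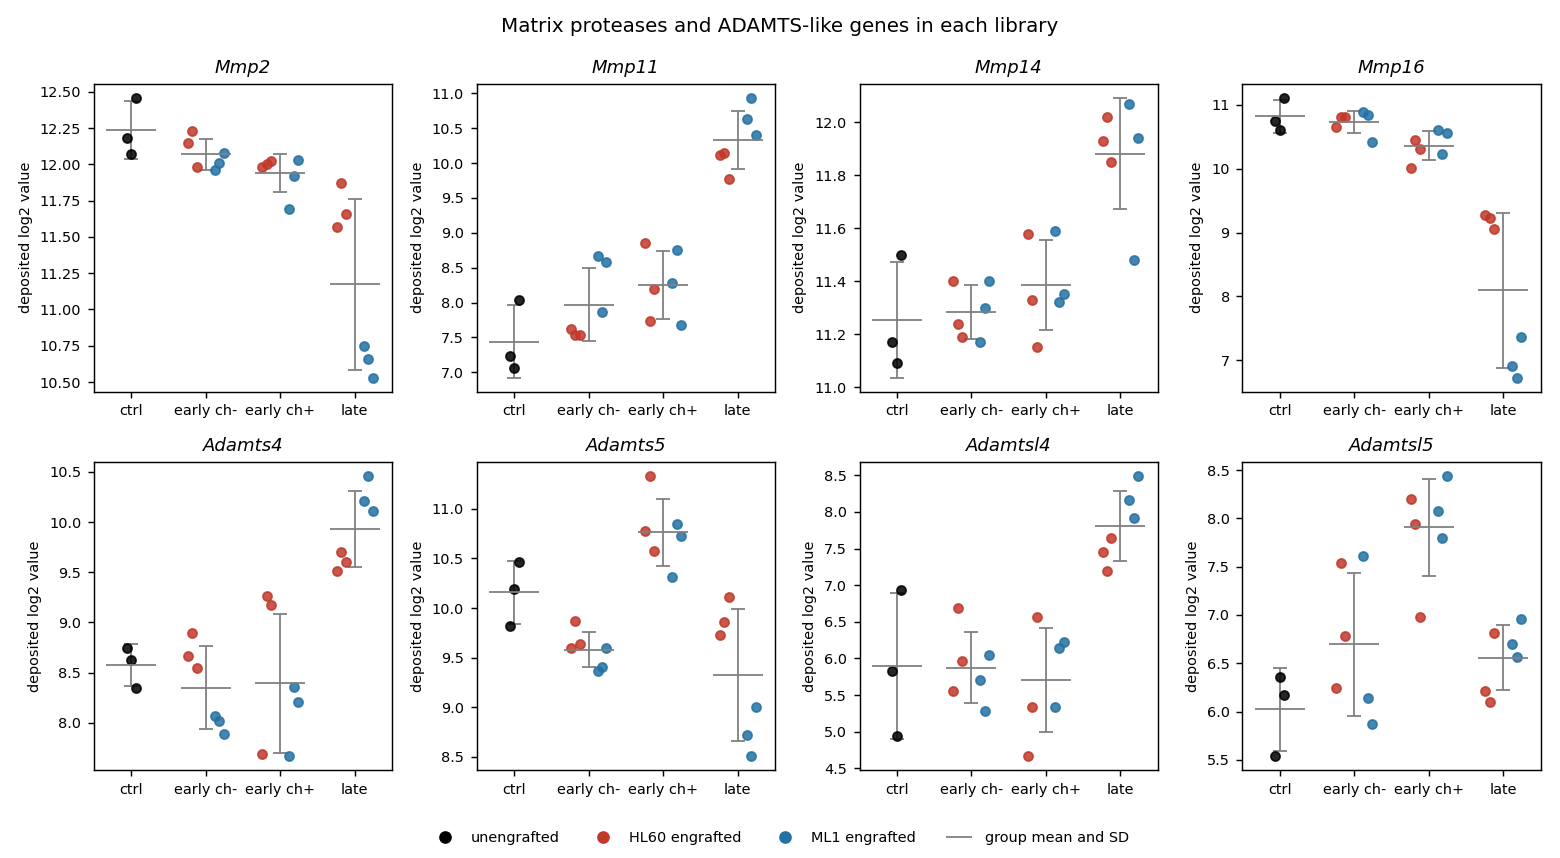
Deposited log2 value (y axis) of 8 protease and ADAMTS-like genes in each library by group (x axis), coloured by cell line, with the group mean and SD as lines. Mmp11 rises in late to 9.77 to 10.94, and Mmp16 falls in late to 9.05 to 9.27 with HL60 and 6.73 to 7.37 with ML1, while Adamts5 and Adamtsl5 are highest in early ch+.

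The proteoglycan-cleaving ADAMTS proteases, which include the aggrecanases and versicanases, split by gene. Of the 7 in the table, Adamts8 and Adamts20 did not pass the filter, and of the 5 tested, 2 were higher (all genes 10.2%) and 2 lower (all genes 11.4%) in late than in ctrl. The lower calls, of Adamts5 and Adamts9, ended after rescaling. Without the late ML1 libraries Adamts1, Adamts5 and Adamts9 lost their calls and Adamts4 stayed called. Adamts4, aggrecanase-1, was among the higher ones. Adamts4 (ENSMUSG00000006403, chr1:171250421-171260637, plus strand) had 8.75, 8.63 and 8.35 in ctrl replicates 373, 374 and 375. Early ch- spanned 7.89 to 8.90 (median 8.31), early ch+ 7.67 to 9.26 (median 8.29) and late 9.51 to 10.46 (median 9.90). No library outside late reached the late range, where HL60 had 9.51, 9.70 and 9.60 and ML1 had 10.21, 10.46 and 10.11. The rise in late was 1.35 ± 0.30 against ctrl (adjusted p = 0.00133) and 1.54 ± 0.24 against early ch+ (adjusted p = 1.89e-05), and without the late ML1 libraries it was 1.02 (adjusted p = 0.044) and 1.21 (adjusted p = 0.00398).

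Adamts5, aggrecanase-2, was the member that separated labelled from unlabelled early cells most clearly together with Timp2. Adamts5 (ENSMUSG00000022894, chr16:85856173-85901828, minus strand) had 9.82, 10.19 and 10.46 in ctrl replicates 373, 374 and 375. Its lowest, median and highest values were 9.37, 9.60 and 9.87 in early ch-, 10.31, 10.75 and 11.33 in early ch+, and 8.51, 9.37 and 10.11 in late. All early ch+ libraries lay above all early ch- and all late libraries, while ctrl overlapped each of these groups. Early ch+ exceeded early ch- by 1.18 ± 0.21 (adjusted p = 0.000364), with 1.19 within HL60 and 1.17 within ML1, and no library decided that call. Late was below early ch+ by −1.44 ± 0.21 (adjusted p = 6.62e-06), and by −0.86 (adjusted p = 0.00081) without the late ML1 libraries. Late was below ctrl by −0.83 ± 0.26 (adjusted p = 0.0238), a call lost without ctrl replicate 375 (−0.68, adjusted p = 0.146), without the late ML1 libraries (−0.26, adjusted p = 0.551), with HL60 alone (−0.26, adjusted p = 0.513) and after rescaling (−0.14, adjusted p = 0.599).

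Adamts1, a versican- and aggrecan-cleaving protease, had 9.44, 10.94 and 10.59 in ctrl replicates 373, 374 and 375, 10.53 to 10.97 in early ch-, 10.10 to 10.63 in early ch+ and 10.34 to 11.86 in late. Late exceeded early ch+ by 0.78 ± 0.21 (adjusted p = 0.00845; without the late ML1 libraries 0.34, adjusted p = 0.412; with HL60 alone 0.27, adjusted p = 0.676). Against ctrl the 0.83 ± 0.26 (adjusted p = 0.0244) was lost without ctrl replicate 373 (0.38, adjusted p = 0.36) without the late ML1 libraries (0.39, adjusted p = 0.404), with HL60 alone (0.39, adjusted p = 0.439), without the filter (adjusted p = 0.105) and in a fit of only the compared groups (adjusted p = 0.103). Adamts9, which cuts versican and aggrecan, was at 10.40 ± 0.13 (SD, n = 3) in ctrl and 9.77 ± 0.50 (n = 6) in late. It was lower in late by −0.63 ± 0.23 against ctrl (adjusted p = 0.056), which became 0.06 (adjusted p = 0.814) after rescaling, and by −0.74 ± 0.18 against early ch+ (adjusted p = 0.0046), which became −0.12 (adjusted p = 0.558). The call against ctrl was lost without ctrl replicate 373 (−0.66, adjusted p = 0.101), 374 (−0.67, adjusted p = 0.105) or 375 (−0.56, adjusted p = 0.193), without late replicate 581 (−0.51, adjusted p = 0.132) or 582 (−0.54, adjusted p = 0.121), and without all late ML1 libraries (−0.23, adjusted p = 0.631), which also ended the call against early ch+ (−0.34, adjusted p = 0.33). HL60 alone (−0.23, adjusted p = 0.551), quantile normalization (−0.55, adjusted p = 0.108), no filter (adjusted p = 0.161) and no trend (adjusted p = 0.116) ended the call against ctrl as well. Of the opposite-strand genes at Adamts9, 9530026P05Rik went from a mean of 4.59 in ctrl to 6.26 in late. A730049H05Rik was at 5.54 in ctrl and in late, and Gm15737 went from 4.19 to 3.81.

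The procollagen N-proteinases Adamts2, Adamts3 and Adamts14, which trim the amino ends of fibrillar procollagens, gave no call against ctrl in late. Adamts3 fell from 6.15 ± 0.48 in early ch+ to 5.25 ± 0.40 in late (−0.90 ± 0.28, adjusted p = 0.0258), and the call was lost after rescaling (−0.29, adjusted p = 0.381) and with ML1 alone (−0.47, adjusted p = 0.621). It was −1.02 (adjusted p = 0.0842) without the late ML1 libraries.

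Of the 9 other ADAMTS genes, Adamts13, Adamts16 and Adamts19 did not pass, and Adamts18 and Adamts6 were lower in late than in ctrl. Adamts18 (ENSMUSG00000053399, chr8:113697126-113848738, minus strand) had 6.46, 6.70 and 6.38 in ctrl replicates 373, 374 and 375. Its lowest, median and highest values were 4.94, 5.98 and 6.40 in early ch-, 5.50, 5.78 and 6.65 in early ch+, and 4.32, 4.78 and 6.11 in late. Each late library lay below ctrl, the highest being HL60 replicate 397. Late was lower than ctrl by −1.55 ± 0.38 (adjusted p = 0.00378) and lower than early ch+ by −0.95 ± 0.31 (adjusted p = 0.0326). Without the late ML1 libraries the values were −1.16 (adjusted p = 0.102) and −0.56 (adjusted p = 0.484), and against early ch+ rescaling gave −0.33 (adjusted p = 0.334) and HL60 alone −0.74 (adjusted p = 0.387).

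Adamts6 (ENSMUSG00000046169, chr13:104287835-104496695, plus strand) had 5.73, 5.70 and 5.95 in ctrl replicates 373, 374 and 375. The lowest, median and highest values were 5.34, 5.76 and 6.18 in early ch-, 5.37, 5.88 and 6.35 in early ch+, and 3.71, 4.80 and 5.95 in late. Late HL60 replicate 397 matched the highest ctrl library and the other late libraries lay below ctrl. Against early ch+ the late difference was −1.10 ± 0.29 (adjusted p = 0.00819), and it was −0.75 (adjusted p = 0.236) without the late ML1 libraries, −0.45 (adjusted p = 0.663) with HL60 alone and −0.49 (adjusted p = 0.143) after rescaling. The difference from ctrl, −0.99 ± 0.36 (adjusted p = 0.0586), was lost without ctrl replicate 373 (−1.03, adjusted p = 0.113), 374 (−1.04, adjusted p = 0.113) or 375 (−0.92, adjusted p = 0.173), without late replicate 583 (−0.78, adjusted p = 0.145), without the late ML1 libraries (−0.65, adjusted p = 0.421), with HL60 alone (−0.65, adjusted p = 0.422), after rescaling (−0.30, adjusted p = 0.469) and in a fit of only the compared groups (adjusted p = 0.101).

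Adamts12 and Adamts17 were called between late and early ch+. Adamts12, at 7.72 ± 0.62 in early ch+ and 8.41 ± 0.30 in late (SD, n = 6 each), rose by 0.69 ± 0.24 (adjusted p = 0.0527), a call lost without late replicate 398 (0.59, adjusted p = 0.129) and without early ch+ replicate 539 (0.58, adjusted p = 0.132) or 541 (0.52, adjusted p = 0.162). It was 0.86 (adjusted p = 0.0777) without the late ML1 libraries, and was lost with HL60 alone (0.65, adjusted p = 0.183), with ML1 alone (0.73, adjusted p = 0.223) and without the filter (adjusted p = 0.138). Adamts17, at 6.31 to 7.64 in early ch+ and 3.92 to 7.06 in late, differed by −1.04 ± 0.37 (adjusted p = 0.0587), lost without late replicate 582 (−0.66, adjusted p = 0.198) or 583 (−0.83, adjusted p = 0.167), without early ch+ replicate 523 (−0.98, adjusted p = 0.106) or 524 (−0.88, adjusted p = 0.147), without the late ML1 libraries (−0.13, adjusted p = 0.899) and after rescaling (−0.42, adjusted p = 0.276). HL60 alone (−0.46, adjusted p = 0.568), no filter (adjusted p = 0.168) and a fit of only the compared groups (adjusted p = 0.114) ended it too.

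ADAMTS-like genes, whose products bind fibrillin microfibrils and other matrix proteins, moved both ways. Adamtsl4, known for its part in the ciliary zonule of the eye, rose late. Adamtsl4 (ENSMUSG00000015850, chr3:95676201-95687917, minus strand) had 5.83, 4.94 and 6.93 in ctrl replicates 373, 374 and 375. Early ch- spanned 5.29 to 6.69 (median 5.83), early ch+ 4.67 to 6.56 (median 5.74) and late 7.19 to 8.49 (median 7.78). Every late library exceeded every other library. The rise was 1.91 ± 0.41 against ctrl (adjusted p = 0.00108) and 2.10 ± 0.33 against early ch+ (adjusted p = 2.4e-05), and without the late ML1 libraries 1.53 (adjusted p = 0.0403) and 1.72 (adjusted p = 0.00567).

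Adamtsl5 was highest in the labelled early cells. Adamtsl5 (ENSMUSG00000043822, chr10:80339110-80348412, minus strand) had 5.54, 6.36 and 6.17 in ctrl replicates 373, 374 and 375. Its lowest, median and highest values were 5.87, 6.51 and 7.61 in early ch-, 6.98, 8.01 and 8.44 in early ch+, and 6.10, 6.64 and 6.96 in late. The early ch+ libraries all lay above ctrl and late but overlapped early ch-. Early ch+ exceeded ctrl by 1.88 ± 0.35 (adjusted p = 0.00106) and early ch- by 1.21 ± 0.29 (adjusted p = 0.0091), the latter being 0.85 (adjusted p = 0.366) within HL60 and 1.57 within ML1. Late was lower than early ch+ by −1.35 ± 0.29 (adjusted p = 0.000989), and by −1.53 (adjusted p = 0.00458) without the late ML1 libraries.

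Adamtsl1 (ENSMUSG00000066113, chr4:85514172-86428385, plus strand) had 7.15, 8.49 and 7.73 in ctrl replicates 373, 374 and 375. Its lowest, median and highest values were 5.94, 7.33 and 7.95 in early ch-, 5.35, 6.48 and 7.24 in early ch+, and 5.66, 6.78 and 7.62 in late. The groups overlapped. Early ch+ was lower than ctrl by −1.32 ± 0.42 (adjusted p = 0.0734), a call lost without ctrl replicate 374 (−0.98, adjusted p = 0.334) or 375 (−1.35, adjusted p = 0.16) and without early ch+ replicate 525 (−1.10, adjusted p = 0.15) or 539 (−1.28, adjusted p = 0.118), with ML1 alone (−1.15, adjusted p = 0.1), without the filter (adjusted p = 0.214) and without the trend (adjusted p = 0.122). Late was lower than ctrl by −1.04 ± 0.42 (adjusted p = 0.0919). That was lost without ctrl replicate 374 (−0.69, adjusted p = 0.398) or 375 (−1.07, adjusted p = 0.175), without late replicate 581 (−0.97, adjusted p = 0.152), 582 (−0.82, adjusted p = 0.202) or 583 (−0.98, adjusted p = 0.148), without early ch- replicate 527 or 546 (−1.04, adjusted p = 0.102 in each case), without the late ML1 libraries (−0.46, adjusted p = 0.639) and after rescaling (−0.35, adjusted p = 0.442). HL60 alone (−0.46, adjusted p = 0.615), quantile normalization (−1.0, adjusted p = 0.115), no filter (adjusted p = 0.22) and no trend (adjusted p = 0.128) ended it as well. Adamtsl3 exceeded early ch+ in late by 0.61 ± 0.24 (adjusted p = 0.082), from 7.59 ± 0.36 to 8.20 ± 0.61 (SD, n = 6 each). The call was lost without late replicate 397 (0.47, adjusted p = 0.222), 398 (0.58, adjusted p = 0.136) or 399 (0.47, adjusted p = 0.22) and without early ch+ replicate 524 (0.58, adjusted p = 0.14), 539 (0.51, adjusted p = 0.181) or 541 (0.56, adjusted p = 0.155). It was 1.13 (adjusted p = 0.00229) without the late ML1 libraries, and was lost with ML1 alone (0.24, adjusted p = 0.727), without the filter (adjusted p = 0.176), without the trend (adjusted p = 0.111) and in a fit of only the compared groups (adjusted p = 0.103).

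With the 3 late ML1 libraries left out, 8 members were called in late against ctrl, 6 higher and 2 lower, beside 12.4% of all genes, and 7 of the 8 were among the 16: Mmp2, Mmp11, Mmp14, Mmp16, Mmp17, Adamts4 and Adamtsl4. In late against early ch+, 12 were called, beside 11.4% of all genes, and all 12 were among the 19.

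Some members were at different levels in the late HL60 and the late ML1 libraries. The test of the difference called 8 of 31 members (25.8%; all genes 4.10%), with 6 higher with HL60 (all genes 3.16%) and 2 lower (all genes 0.940%). Rescaling to the mean total gave 4 higher and 5 lower, with 5.44% of all genes called. Mmp16 was at 9.18 ± 0.12 (SD, n = 3) with HL60 and 7.01 ± 0.33 (n = 3) with ML1, a difference of 2.17 ± 0.18 (SE, adjusted p = 8.79e-10). Mmp2 was at 11.70 ± 0.16 and 10.65 ± 0.11 (difference 1.06 ± 0.13, adjusted p = 1.02e-06), and Adamts5 at 9.90 ± 0.19 and 8.74 ± 0.25 (difference 1.15 ± 0.20, adjusted p = 0.000226). These genes were all nearer to ctrl with HL60 than with ML1. Adamts17 differed by 1.81 ± 0.40 (adjusted p = 0.00517), Adamts9 by 0.81 ± 0.19 (adjusted p = 0.00873; after rescaling 0.56, adjusted p = 0.159) and Adamtsl3 by 1.04 ± 0.27 (adjusted p = 0.0224; after rescaling 0.80, adjusted p = 0.125).

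The members lower with HL60 were Timp3, at 11.74 ± 0.45 against 12.67 ± 0.18 with ML1 (difference −0.93 ± 0.20, adjusted p = 0.00481), and Adamts1, at 10.71 ± 0.35 against 11.59 ± 0.30 (difference −0.87 ± 0.24, adjusted p = 0.0391). The Adamts1 call was lost without late replicate 397 (−0.69, adjusted p = 0.294), 582 (−0.74, adjusted p = 0.235) or 583 (−0.85, adjusted p = 0.142), without the filter (adjusted p = 0.267) and without the trend (adjusted p = 0.209), and that of Adamtsl3 without late replicate 397 (0.94, adjusted p = 0.136), 399 (0.96, adjusted p = 0.118) or 581 (0.98, adjusted p = 0.111). Mmp14 (0.10, adjusted p = 0.946) and Mmp11 (−0.65, adjusted p = 0.354) did not pass this test. All of these differences rest on the 3 late ML1 libraries whose treatment label reads unengrafted. The chondrocyte and osteoblast sums differed between the same libraries, and their part in these differences was not tested.

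Early in the disease no member differed between the cell lines by limma. In early ch+ the test called none of 31 (all genes 0.0154%; 3 members at an unadjusted p under 0.05), in early ch- none (all genes 0.0539%; 3 members), and in the ch+ to ch- difference none (all genes 0.0077%; 1 member).

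The zinc-binding motif shared by these proteases was found in the coding sequence of 36 members. The motif was searched in frame in the longest coding transcript of each member (GENCODE M21, GRCm38). Its pattern was a histidine, a glutamate, any pair of residues, a histidine, any pair of residues and, at codon 8, a glycine (GGN) or an asparagine (AAC or AAT). After codon 8 the pattern required any pair of residues and a further histidine. All 18 MMPs held it with GGN at codon 8. Of 19 ADAMTS genes 18 held it, 13 with GGN and 5 with AAC or AAT (Adamts1, Adamts4, Adamts9, Adamts15 and Adamts20), and Adamts8 had no match. None of the 5 ADAMTS-like genes and none of the 4 TIMPs held it. The 24 bases that begin the motif are shown for 6 of the proteases described above, 5′ to 3′ on the coding strand, with capitals for the codons of the 2 leading residues, of the next histidine and of codon 8.
Mmp2: CATGAGttcggcCATgccatgGGG
Mmp11: CATGAAtttggcCATgttctgGGG
Mmp14: CATGAGttggggCATgccctaGGC
Mmp16: CATGAGctgggaCATgctctaGGA
Adamts4: CATGAActgggcCATgtcttcAAC
Adamts5: CATGAAattgggCATctacttGGC
They lie in exon 8 of Mmp2 (chr8:92839279-92839302), exon 5 of Mmp11 (chr10:75926940-75926963), exon 5 of Mmp14 (chr14:54437627-54437650) and exon 5 of Mmp16 (chr4:18051748-18051771). In Adamts4 the motif runs over exons 3 and 4 (chr1:171253210-171253906) and in Adamts5 over exons 2 and 3 (chr16:85878024-85887826), so that an intron divides it. Members with a rise and members with a reduction in late both carry the motif, which is a description of the sequence only.

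Genes around these proteases were followed by lists of substrates, partners and activating enzymes. In late against ctrl, 10.2% of all tested genes were higher and 11.4% lower, and after rescaling 64.0% were called. Of 23 tested matrix substrates, 13 were lower and 5 higher in late than in ctrl, with a median log2 fold change of −1.60 (all genes 0.02), and 8 were higher and 13 lower after rescaling. Matn3, a cartilage matrix protein, went from 10.11 ± 0.68 (SD, n = 3) in ctrl to 5.95 ± 1.38 (n = 6) in late (−4.16 ± 0.66, adjusted p = 2.59e-05). Fbn1, the main fibrillin of microfibrils, went from 12.21 ± 0.31 to 14.57 ± 0.27 (2.36 ± 0.20, adjusted p = 1.76e-09). In early ch+ against early ch-, 4 substrates were higher (all genes 3.57%) and 7 lower (all genes 2.67%). Fn1, fibronectin, rose by 2.59 ± 0.19 (adjusted p = 2.69e-10) and Matn3 fell by 3.43 on the log2 scale (SE 0.54, adjusted p = 5.98e-05). The rise of Fn1 was 1.66, still called, after quantile normalization. Leaving out the late ML1 libraries, 5 substrates were higher and 13 lower in late than in ctrl (all genes 12.4% called), Matn3 by −3.11 and Fbn1 by 2.13. Acan, Matn3, Hapln1 and Col2a1 of this list are also chondrocyte markers, Col1a1 and Col1a2 osteoblast markers and Vwf an endothelial marker.

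The 11 tested partners of MMPs and TIMPs, such as receptors and membrane anchors, held 5 lower (all genes 11.4%) and 1 higher (all genes 10.2%) in late against ctrl (median −0.05). After rescaling 6 were higher and 2 lower, where 64.0% of all genes were called. In early ch+ against early ch-, 3 were higher (all genes 3.57%). Sdc1, a cell-surface proteoglycan, rose in both of these comparisons, by 0.96 ± 0.21 (adjusted p = 0.00159) and 1.00 ± 0.17 (adjusted p = 0.00024). Its rise in late was 1.65 after rescaling. Sparc, a collagen-binding matrix protein, fell by 2.03 in late on the log2 scale (SE 0.29, adjusted p = 5.15e-06), and its call was lost after quantile normalization (−0.19). Rescaling gave −1.34 for Sparc, still called. With the late ML1 libraries left out, 1 partner was higher and 4 lower in late (all genes 12.4% called), with Sdc1 at 0.93 and Sparc at −1.30. Of 7 tested convertases and BMP1-family genes, which process precursors of MMPs, ADAMTS proteases and procollagens, 5 were lower and none higher in late against ctrl (median −0.53; all genes 21.5% called), while rescaling gave 3 higher and 3 lower (median 0.17; all genes 64.0% called). Pcsk6, a proprotein convertase, went from 11.76 ± 0.30 in ctrl to 8.57 ± 1.25 in late (−3.19 ± 0.40, adjusted p = 1.02e-06), and without the late ML1 libraries 4 genes of this list were lower (all genes 12.4% called), Pcsk6 by −2.06. Furin, the convertase that cuts the propeptides of Mmp11 and the membrane-type MMPs, was higher in early ch+ than in early ch-, at 9.98 ± 0.17 against 9.13 ± 0.19 (0.85 ± 0.12, adjusted p = 1.37e-05). With all libraries on the deposited scale it was the only gene of this list called there (all genes 6.25% called). Rescaling gave 2 higher (all genes 8.24% called), and leaving out the late ML1 libraries also gave 2 (all genes 6.95% called).

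The 15 members that did not pass had means over the 21 libraries from −2.23 to 3.26. They were Mmp1a, Mmp3, Mmp10, Mmp12, Mmp20, Mmp21, Mmp24, Mmp25, Mmp27, Adamts8, Adamts13, Adamts16, Adamts19, Adamts20 and Adamtsl2. Adamts16, at 3.26, was the nearest below the minimum and Mmp15, at 3.71, the nearest above. Adamts16 had group means of 3.05 ± 0.99 (SD, n = 3) in ctrl, 3.14 ± 0.85 in early ch-, 4.48 ± 0.55 in early ch+ and 2.25 ± 0.09 in late (n = 6 each), and was not tested. The stromelysin Mmp10, with a mean of −1.96, and the macrophage elastase Mmp12, at −1.32, stood near the bottom of the deposited scale, whose lowest value is −2.33. The stromelysin Mmp3 had a mean of 1.27.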

How the data were processed

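RNA-seq of sorted Nes-low cells (21 libraries, amplified with Nugen Ovation V2) was aligned and counted by the authors against mm10. The authors used STAR 2.5.1b, RSEM 1.2.29 and DESeq2 1.10.1 by their processing notes. The deposited values are regularized log2 values per Ensembl gene (−2.33 to 22.44). The study's methods give the base as 10, but a top value of 22.44 cannot be on that base. Of 26852 identifiers, 26722 matched a GENCODE M21 symbol. The depth of each library is unknown, as only a typical yield is given, so no count test was run and the precision of single values rests on the spread between libraries.

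Values were compared with limma 3.58.1 in R 4.3.3 (mean-variance trend, two-sided, no pseudocount), in a fit of 4 groups with the cell lines pooled and a fit of 7 groups that splits them. Genes with a mean of at least 3.32 were tested, p-values were Benjamini-Hochberg adjusted over all 12980 tested genes, and an adjusted p under 0.1 was a call. The filter uses all libraries, so a gene high in a single group can pass through it. Counts, levels and figures were made in Python 3.11.15. Single genes were ranked by level only per kilobase of exon, while marker sums and the filter use values without length. The log2 of summed markers adds the values on the linear scale. Libraries of a group and line correlated at Pearson r of 0.935 to 0.976 and none was a duplicate.

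Members called anywhere and every Timp were named, and up to 12 members with the largest called change in late or early ch+ got library values. Of each related list, the called genes with the largest change each way were named. The members and lists were chosen with earlier results of these data known. Alternatives were an adjusted p of 0.05, no filter or a minimum of 5, quantile normalization, rescaling to the mean total, no trend, fits of only the compared groups, each line alone, and each library left out. Leaving out the late ML1 libraries was chosen after seeing the data.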

Additional observations from a re-analysis of the deposited data

Results flagged for a closer look

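Single libraries stood apart from the other 5 of their group in 4 of 93 groups of 6 libraries, by the gap to the nearest library relative to the range, where chance gives about 1 in 20 groups. Adamtsl3 was at 8.15 in early ch- ML1 replicate 546 (others 7.06 to 7.44). Mmp19 was at 4.77 in early ch- ML1 replicate 543 (others 7.35 to 8.01). Mmp2 was at 11.69 in early ch+ ML1 replicate 538 (others 11.92 to 12.03). Timp4 was at 7.64 in late HL60 replicate 398 (others 5.20 to 6.11).

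Late in the disease, 8 members differed between HL60 and ML1 libraries by the limma test of that difference. The log2 differences, HL60 minus ML1, were 2.17 for Mmp16, 1.81 for Adamts17, 1.15 for Adamts5, 1.06 for Mmp2, 1.04 for Adamtsl3, 0.81 for Adamts9, −0.87 for Adamts1 and −0.93 for Timp3. They rest on the late ML1 libraries whose treatment label reads unengrafted.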

How the results depend on the processing

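Over the members named and the alternatives run, 1759 comparisons of a fold change with its alternative kept their side of the threshold. Another 161 lost the call, 11 gained it and 2 called fold changes reversed. The reversals came from rescaling to the mean library total: Adamts9 in late against ctrl became 0.06 and Timp2 in late against early ch+ became 0.15. Reversals were counted for called fold changes only, and some uncalled TIMP results among the 1759 changed sign. Timp4 in late against early ch+, for example, ran from −0.07 to 0.51 when 1 library at a time was left out. In late against ctrl, 16 members were called (all genes 21.5%), 10 with the HL60 libraries alone and 8 with the late ML1 libraries left out (all genes 12.4%), an alternative chosen after seeing the data. In late against early ch+, 19 (all genes 19.7%) became 12 with HL60 alone and 12 with the late ML1 libraries left out (all genes 11.4%). In early ch+ against ctrl, 4 became 1 at an adjusted p of 0.05, 2 without the filter, 1 without the mean-variance trend and 8 in the 7-group fit. Without the filter Adamtsl1, Timp2 and Timp3 lost their calls, so the 2 include a member outside the 4. In early ch- against ctrl, 0 became 1 in the 7-group fit and 2 with ML1 alone. In early ch+ against early ch-, 4 became 2 with HL60 alone. The share of all genes called is not given for the other settings, so their counts do not tell a change in the members from one in all genes. Fewer libraries enter the fits of a single line, and the cause of the other changes was not tested.

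When 1 library at a time was omitted, the counts ran from 10 to 18 in late against ctrl (10 without ctrl replicate 375), from 2 to 5 in early ch+ against ctrl (2 without ctrl replicate 373 or 374), from 0 to 1 in early ch- against ctrl (1 without early ch- replicate 543), from 3 to 5 in early ch+ against early ch-, from 17 to 19 in late against early ch+ and from 6 to 9 in HL60 against ML1 in late, and stayed at 0 in the other 3 tests. In late against ctrl, no single omission ended the calls of Mmp2, Mmp11, Mmp14, Mmp16, Adamts4, Adamts18 and Adamtsl4. The ctrl group has 3 libraries, which limits every comparison with it. No paired analysis was run, because the groups share no replicate numbers and no label says which early ch+ and early ch- libraries come from the same marrow.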

Other observations

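Proteases outside the symbol families were listed as well. In late against ctrl, 10.2% of all tested genes were higher and 11.4% lower, and after rescaling 64.0% were called with a median of 0.71. Of 9 tested genes of plasminogen activation, 3 were higher and none lower in late than in ctrl (median log2 fold change 0.53, all genes 0.02), 7 higher and none lower after rescaling (all genes 64.0% called), and 2 higher and 1 lower without the late ML1 libraries (all genes 12.4% called). Plat, tissue plasminogen activator, went from 6.63 ± 0.27 (SD, n = 3) in ctrl to 8.83 ± 0.17 (n = 6) in late (2.20 ± 0.28 SE, limma adjusted p = 1.14e-06; 2.23 without the late ML1 libraries). Serpina3n, a secreted serine protease inhibitor, was higher in early ch+ than in early ch-, at 7.97 ± 1.00 against 6.05 ± 1.03 (1.92 ± 0.54, adjusted p = 0.0353). Of 10 tested ADAM proteases, membrane-anchored relatives of the ADAMTS family, 2 were higher and 2 lower in late than in ctrl (median −0.06; all genes 21.5% called), 6 higher and 1 lower after rescaling (median 0.63; all genes 64.0% called, median 0.71), and 2 higher and 1 lower without the late ML1 libraries (all genes 12.4% called). Adam19 rose by 1.2 ± 0.27 (adjusted p = 0.00189) and Adam23 fell by 1.44 on the log2 scale (SE 0.34, adjusted p = 0.0029). After rescaling Adam19 was at 1.89 and Adam23 at −0.75, still called. Adam9 was higher in early ch+ than in early ch- by 0.81 ± 0.14 (adjusted p = 0.000235) and Adam12 lower by −0.31 ± 0.09 (adjusted p = 0.0605), the latter losing its call after rescaling (−0.15).

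Of 15 tested cathepsins, cystatins and related proteases, 3 were higher and 3 lower in late against ctrl (median −0.33; all genes 21.5% called), 8 higher and none lower after rescaling (all genes 64.0% called), 3 higher and 2 lower without the late ML1 libraries (all genes 12.4% called), and 5 were higher and none lower in early ch+ against early ch- (all genes 6.25% called). Ctsc, a lysosomal dipeptidyl peptidase, rose in late by 1.97 ± 0.22 (adjusted p = 2.37e-07), and Ctsh fell by 0.78 on the log2 scale (SE 0.16, adjusted p = 0.000879), a call lost after rescaling (−0.09). Htra1, a secreted serine protease, was at 9.88 ± 0.20 in early ch+ and 8.42 ± 0.28 in early ch- (SD, n = 6 each; 1.46 ± 0.14, adjusted p = 4.38e-08). Of 5 ADAMTS relatives outside the symbol rule, 2 were tested. Thsd4, which encodes ADAMTSL6, was higher in late than in ctrl by 0.82 ± 0.31 (adjusted p = 0.0704; 0.69, adjusted p = 0.227 without the late ML1 libraries), and Thsd7a was higher in early ch+ than in early ch- by 0.66 ± 0.22 (adjusted p = 0.0857). The difference of Thsd4 was 1.51 after rescaling.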
